A study of Mus musculus with 6 samples.

Results

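The transcription factor ATF4 and the genes it is known for were followed through 40 mouse genes, picked by symbol from the 52636 genes of the count table. By role they were 14 stress response genes, 8 genes of amino acid synthesis, 6 amino acid transporters and 12 cytosolic tRNA synthetases. RNA-seq was performed on embryoid bodies (EBs), aggregates in which mouse embryonic stem cells (ESCs) begin to differentiate, from 3 WT samples and 3 Tnfaip2-/- samples. WT is the parental E14 ESC line, and Tnfaip2-/- is 1 clone of that line in which CRISPR editing placed a premature stop codon in Tnfaip2. According to the labels, both genotypes formed EBs in hanging drops of 30 µl with 300 cells for 3 days (the study's methods give another volume and cell number) and were then plated on gelatin for 3 days of differentiation. For both genotypes the labels list serum replacement and nonessential amino acids in the differentiation medium, where the study's methods have FBS in place of the replacement. Totals were 22987433, 22489903 and 23804489 counts in the WT samples and 22480962, 21765931 and 21986960 in the Tnfaip2-/- samples. The count of Tnfaip2 was 7, 4 and 7 in the WT samples and 0, 2 and 2 in the Tnfaip2-/- samples, so the samples with the lower counts were those labelled as edited.

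Cells that lack amino acids or accumulate unfolded proteins activate kinases such as GCN2 and PERK, which phosphorylate the translation initiation factor eIF2. Most protein synthesis then slows, while translation of the Atf4 mRNA rises through its upstream reading frames, so that the level of the mRNA alone does not give the amount of the protein. ATF4 dimerizes with C/EBP family proteins and activates genes of amino acid synthesis, amino acid uptake and tRNA charging, and the phosphatase subunit GADD34 (Ppp1r15a) closes the loop by removing the phosphate from eIF2.

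In Tnfaip2-/- EBs versus WT EBs, 12 of the 14 genes that make or import amino acids were lower, whereas 9 of the 14 stress response genes were higher. Expression is given as counts per 1000000 counts (CPM), and DEGs were genes that passed edgeR's quasi-likelihood test with a Benjamini-Hochberg adjusted p under 0.05. All 40 genes passed the expression filter and 34 (85.0%) were DEGs, against 67.7% of the 17849 genes tested. Of the 40 genes, 11 (27.5%) were higher, against 34% of all genes tested, and 23 (57.5%) were lower, against 33.7%. At a change of at least 1.5-fold, 14 genes were left, where the share over all genes was 24.8%. At this size, 3 of the 40 genes were higher, where 13.9% of all genes tested were, and 11 of the 40 were lower, where 10.9% of all were. The samples of the 2 genotypes did not overlap for 37 of the 40 genes, against 69.4% of all genes. The median log2 fold change was -0.19 over the 40 genes and 0.003 over all genes tested, whose quartiles were -0.30 and 0.31. These counts describe the genes and were not tested as a set.

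Separated by role, the medians pointed in opposite directions. Over all genes tested, 34% were higher and 33.7% lower. For stress response the median log2 fold change was 0.30, with 9 genes higher (64.3%), 3 lower (21.4%) and 2 not called. Amino acid synthesis had a median of -0.56 with 6 of 8 genes lower, and transport a median of -0.61 with 6 of 6 genes lower, and no gene of either role was higher. The tRNA synthetases lay nearer to zero, with a median of -0.10, 8 genes lower and 2 higher. The median of each role was also taken within each sample, relative to the WT means. For stress response it was 0.27, 0.33 and 0.28 in the Tnfaip2-/- samples, for synthesis -0.56, -0.58 and -0.50, for transport -0.62, -0.60 and -0.60, and for tRNA synthetases -0.12, -0.13 and -0.08. Every Tnfaip2-/- sample thus showed the direction of its group in each role. The summed level of the transporters was 961 ± 3.37 CPM in WT and 614 ± 6.06 CPM in Tnfaip2-/- EBs (SD, n = 3), that of the synthesis genes 845 ± 4.02 and 599 ± 4.86 CPM, that of the synthetases 2290.3 ± 16.1 and 2094 ± 12.7 CPM, and that of the stress response genes 315 ± 2.33 and 334 ± 4.76 CPM.

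**Figure D1:**
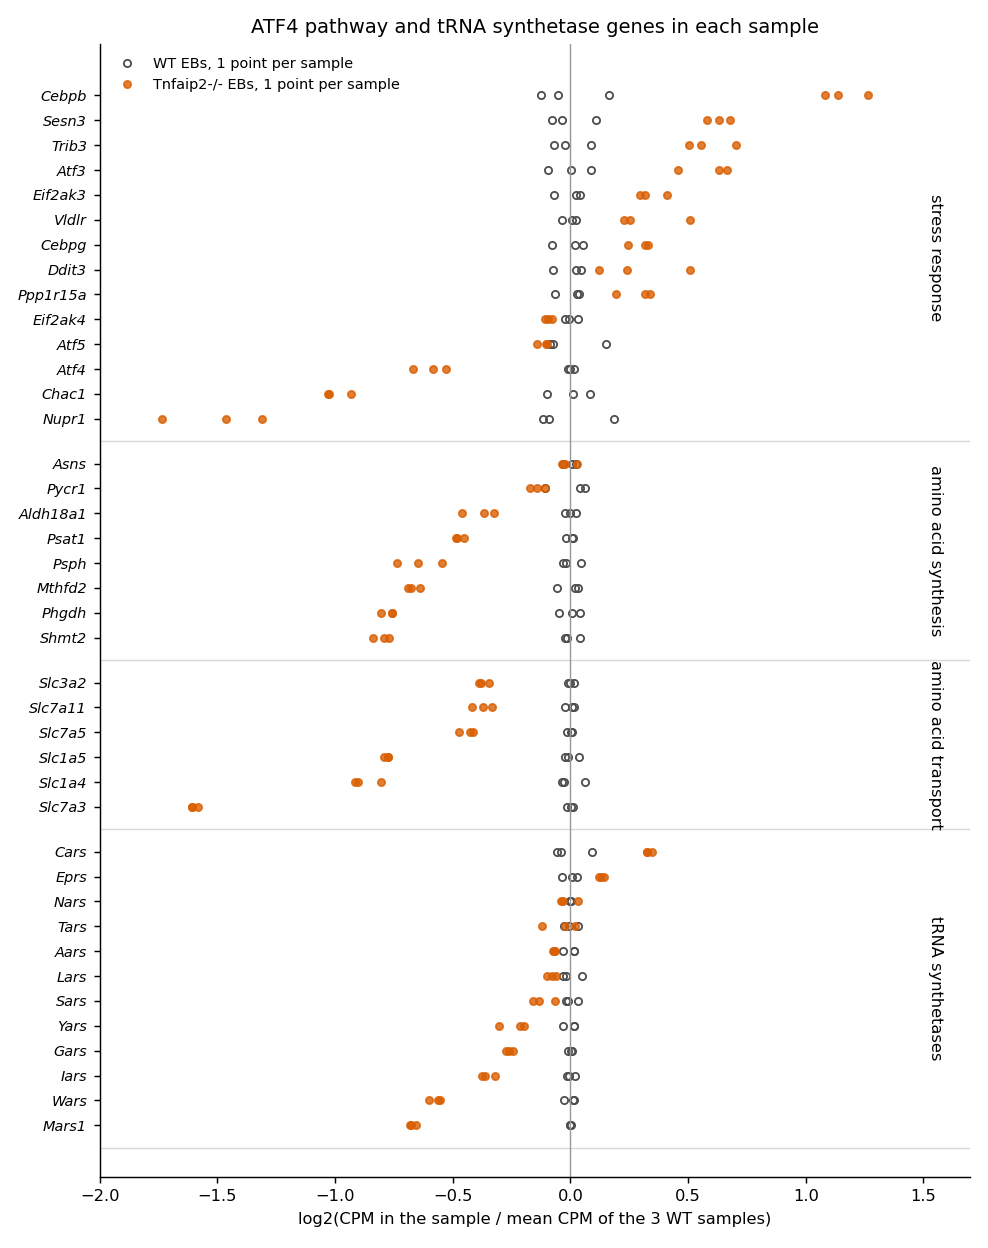
Level of each of the 40 genes in each sample as log2 of its CPM over the mean CPM of the 3 WT samples (x axis), by role, with WT EBs as open grey points and Tnfaip2-/- EBs as filled orange points. Cebpb lies farthest to the right and Slc7a3 and Nupr1 farthest to the left, and for Asns, Nars and Tars the points of the 2 genotypes overlap.

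Replicates were close together. The coefficient of variation of the 40 genes ranged from 0.214% (Mars1) to 11.9% (Nupr1) in WT EBs and from 0.356% (Aars) to 14.6% (Nupr1) in Tnfaip2-/- EBs, with medians of 2.25% and 2.63%. Because 1 line stands for each genotype, this spread is that between samples of a line, and clone and genotype cannot be told apart. The p-values given below are measured against the same spread. For a single value, an exact permutation test of 3 against 3 samples cannot give a two-sided p below 0.1, and p-values are therefore taken from the fit across all genes. In bulk RNA, fewer cells of a type and less RNA per cell cannot be told apart.

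Marker genes of the cell types that EBs can hold differed between the genotypes as well. Their counts stand beside 67.7% of all genes tested that were called, 34% higher and 33.7% lower. Where a gene is said to lead a list, it does so by CPM per kb of exon. Of 8 pluripotency markers, 3 were higher and 5 lower, with summed levels of 2633, 2619 and 2639 CPM in WT and 2431, 2433 and 2446 CPM in Tnfaip2-/- EBs. Pou5f1 led in WT and Utf1 in Tnfaip2-/- EBs (338 and 252 CPM per kb). Pou5f1 fell from 760 to 419 CPM, whereas Zfp42 rose from 229 to 428 CPM. Nanog and Sox2 were the other higher ones (log2 fold changes of 0.26 and 0.23). Primitive streak and mesoderm markers summed to 75.7, 74.0 and 74.6 CPM in WT and 21, 18.5 and 22.1 CPM in Tnfaip2-/- EBs, led by T in WT (34.6 CPM, and 0.134 CPM in Tnfaip2-/- EBs) and by Eomes in Tnfaip2-/- EBs (18.5 CPM, and 28.4 CPM in WT). Of these 7 genes 6 were tested, all 6 were lower, and Msgn1 was at 0 in all Tnfaip2-/- samples. Neuroectoderm markers fell in sum from 113, 112 and 105 CPM to 49.6, 48.9 and 49.1 CPM, led by Sox1, with 4 of 4 tested genes lower. All tested markers of these lists were thus lower, while those of the other lineages were mixed. Trophoblast markers summed to 53.7, 52.5 and 50.4 CPM in WT and 193, 188 and 193 CPM in Tnfaip2-/- EBs. This rise rested on Tfap2c (21.7 and 171 CPM), a gene that other cell types also express. In WT EBs, Eomes had the larger share of the sum (28.4 CPM). Of the 4 tested trophoblast markers, 2 were higher and 2 lower. The lower ones were Cdx2 (1.57 and 0.0451 CPM) and Eomes, which is also counted among the primitive streak and mesoderm markers. Extraembryonic endoderm markers, led by Dab2, summed to 75.5, 75.8 and 77.5 CPM in WT and 64.5, 62.0 and 63.9 CPM in Tnfaip2-/- EBs, with 5 of 8 lower and 1 higher. Definitive endoderm markers, led by Cxcr4 in both genotypes, summed to 11.5, 11.3 and 9.66 CPM in WT and 7.57, 7.85 and 8.79 CPM in Tnfaip2-/- EBs, with 2 of 4 lower and 1 higher. Fibroblast markers stayed low, at 13.1, 13.8 and 12.8 CPM in WT and 11.5, 11.4 and 11.9 CPM in Tnfaip2-/- EBs, led by Thy1 in both genotypes, with 2 of 5 tested genes lower, 1 higher, and Lum and Postn at 0 in all Tnfaip2-/- samples. The part of these differences in the levels of the ATF4 and tRNA synthetase genes was not tested.

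Genes that ATF4 binds often carry the C/EBP-ATF response element, whose core is TGATGNAA, where N is any base. This core was searched on both strands of the 300 bases around each RefSeq start (250 bases before to 50 after, GRCm38.p6). A window was found for 33 of the 40 genes, while Cars, Lars, Nars, Slc1a5, Slc7a3, Slc7a5 and Wars had none. The core was present in 14 of the 33 genes (42.4%), against 1219 of 27025 genes (4.51%) and 3.97% of all 32851 windows. By role it was found in 5 of 14 stress response genes, 2 of 8 synthesis genes, 2 of 3 transporters and 5 of 8 tRNA synthetases. The narrower letters TGATGCAA, which are a case of the core, were present in 11 of 33 genes (33.3%), against 279 of all genes (1.03%). An endoplasmic reticulum (ER) stress response element, CCAAT, then any 9 bases, then CCACG, was in none of the 33 genes and in 37 of all genes (0.137%), which says only that these letters are not in the windows searched. Stretches of 80 bases are shown for the 6 genes with the core that changed most, since they moved in both directions. They are written 5′ to 3′ on the strand of the gene, with the core or its reverse complement in capitals.
Nupr1: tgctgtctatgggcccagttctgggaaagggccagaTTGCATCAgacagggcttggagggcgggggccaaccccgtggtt
Chac1: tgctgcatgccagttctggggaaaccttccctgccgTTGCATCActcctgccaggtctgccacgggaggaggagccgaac
Trib3: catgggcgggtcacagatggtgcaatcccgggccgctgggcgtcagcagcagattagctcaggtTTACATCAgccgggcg
Atf3: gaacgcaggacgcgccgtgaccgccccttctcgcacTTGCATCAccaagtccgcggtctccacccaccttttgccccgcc
Slc1a4: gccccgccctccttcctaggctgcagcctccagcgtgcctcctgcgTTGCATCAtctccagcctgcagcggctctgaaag
Slc7a11: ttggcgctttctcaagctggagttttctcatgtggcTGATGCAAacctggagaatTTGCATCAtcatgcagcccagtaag

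These stretches lie at chr7:126625537-126625616 on the reverse strand (Nupr1), chr2:119351013-119351092 on the forward strand (Chac1), chr2:152344031-152344110 on the reverse strand (Trib3), chr1:191183400-191183479 on the reverse strand (Atf3), chr11:20332684-20332763 on the reverse strand (Slc1a4) and chr3:50443636-50443715 on the reverse strand (Slc7a11). The match began 110 bases before the RefSeq start in both Nupr1 and Atf3, 193 bases before it in Chac1 and 4 bases before it in Slc1a4, and at base 15 after it in Trib3. In Slc7a11 there were 2 matches on opposite strands, 66 and 47 bases before the start. Nupr1, Chac1, Slc1a4, Atf3 and Slc7a11 carry the narrower letters, while the match in Trib3, TTACATCA, is the reverse complement of the core with another base at N.

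Genes with the core did not share a direction. Of the 14 genes, 3 were higher (Atf3, Trib3 and Vldlr), 8 were lower (Aars, Chac1, Gars, Iars, Nupr1, Slc1a4, Slc7a11 and Yars) and 3 were not called (Asns, Pycr1 and Tars), with a median log2 fold change of -0.19. Of the 19 genes with a window but no core, 7 were higher and 10 lower, with a median of -0.12. Among the tested genes for which a window was found, 301 had the core, of which 40.9% were higher and 29.6% lower (median 0.08). Of the 10840 tested genes with a window but no core, 37.6% were higher and 36% lower (median 0.01). A match describes the letters of a window and does not show that ATF4 binds there.

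**Figure D2:**
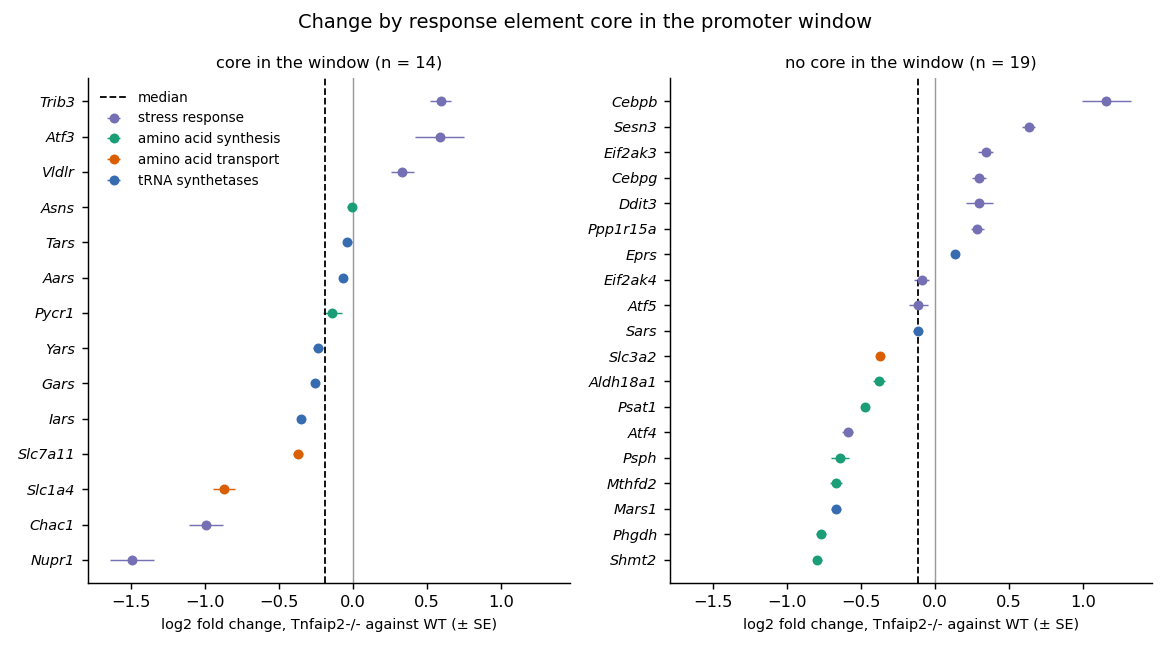
Log2 fold change of Tnfaip2-/- against WT EBs (x axis, points with SE) for the 14 genes with TGATGNAA in the promoter window (left) and the 19 genes without it (right), colored by role, with the median as a dashed line. Genes with the core lie on both sides of 0, from -1.49 for Nupr1 to 0.59 for Trib3.

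Among the stress response genes, Atf4 mRNA was lower. Atf4 (ENSMUSG00000042406, chr15:80255184-80257541, forward strand, GRCm38) had 85.2, 83.7 and 84.2 CPM in the WT EBs and 58.5, 53.1 and 56.3 CPM in the Tnfaip2-/- EBs. All 3 Tnfaip2-/- samples lay below all 3 WT samples. The means were 84.4 ± 0.751 and 56.0 ± 2.71 CPM (SD, n = 3), and the log2 fold change was -0.59 (SE 0.0377, adjusted p = 1.34e-18 in edgeR's quasi-likelihood test). This change is 1.51-fold, at the edge of the 1.5-fold threshold, and without Tnfaip2-/- replicate 2 (-0.55) or with scaling by total counts alone (-0.56) it fell short of it.

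Of the 4 eIF2 kinases, which act before ATF4, 2 are among the 40 genes and the others are given with the further lists. Eif2ak3, which encodes the ER stress sensor PERK (chr6:70844515-70905245, forward strand), had 25.7, 24.1 and 26.0 CPM in WT and 31.1, 33.7 and 31.5 CPM in Tnfaip2-/- EBs. Each Tnfaip2-/- sample was above each WT sample, with a log2 fold change of 0.34 (SE 0.0525, adjusted p = 1.97e-07 in edgeR's quasi-likelihood test). The transcript Gm43292 on the opposite strand overlaps 8.0% of the exon bases of Eif2ak3. Eif2ak4, which encodes GCN2, the sensor of uncharged tRNA (chr2:118388618-118475234, forward strand), had 30.0, 30.8 and 29.6 CPM in WT and 28.0, 28.6 and 28.2 CPM in Tnfaip2-/- EBs. Although these groups did not overlap, the difference was small and did not pass the test (log2 fold change -0.09, SE 0.0502, adjusted p = 0.101 in edgeR's quasi-likelihood test). Ppp1r15a, the phosphatase subunit GADD34 that reverses the action of both kinases, was 1.22-fold higher (38.7 ± 1.5 and 47.2 ± 2.51 CPM, log2 fold change 0.28, adjusted p = 4.94e-07 in edgeR's quasi-likelihood test).

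Of the transcription factors in this role besides Atf4, Cebpb, Cebpg, Atf3 and Ddit3 were called higher and Atf5 was not called, while Nupr1, given below, was lower. Cebpb, a C/EBP family factor (chr2:167688915-167690418, forward strand), had 1.5, 1.43 and 1.75 CPM in WT and 3.30, 3.42 and 3.74 CPM in Tnfaip2-/- EBs. It was low in every sample, yet all Tnfaip2-/- samples were above all WT samples, with a 2.23-fold higher fitted level (log2 fold change 1.16, SE 0.163, adjusted p = 2.61e-08 in edgeR's quasi-likelihood test). The values rest on 34, 32 and 41 counts against 75, 75 and 83, and 20.7% of the exon bases of Cebpb overlap Tmem189 on the opposite strand. The library kit does not keep the strand, and reads from such overlaps could belong to either gene. Tmem189 itself had 30.7 and 29.0 CPM and was not a DEG (log2 fold change -0.08, adjusted p = 0.178 in edgeR's quasi-likelihood test). Cebpg, a dimerization partner of ATF4, was higher by 0.30 on the log2 scale, and the target Atf3, a repressor and activator of stress genes, by 0.58. Atf3 had 1.76, 1.65 and 1.87 CPM in WT and 2.73, 2.42 and 2.80 CPM in Tnfaip2-/- EBs, just short of 1.5-fold, and it passed that threshold without Tnfaip2-/- replicate 2 (0.64) or WT replicate 3 (0.62), with total counts alone (0.61), with the stricter filter (0.5903) and, barely, with the replicate block (0.5853).

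The call of Ddit3, which encodes the pro-apoptotic factor CHOP, depended on a single sample. Ddit3 had 8.38, 7.73 and 8.26 CPM in WT and 9.59, 11.6 and 8.84 CPM in Tnfaip2-/- EBs, where replicate 2 stood above the others. Its log2 fold change was 0.30 (SE 0.0917, adjusted p = 0.00408 in edgeR's quasi-likelihood test), and without Tnfaip2-/- replicate 2 it was 0.18 (adjusted p = 0.0997 in the same test) and no longer a DEG. With DESeq2 in place of edgeR the call was lost as well, but the change kept its size (0.29, adjusted p = 0.061). Atf5, a factor of the mitochondrial stress response, was not called (log2 fold change -0.11, adjusted p = 0.11 in edgeR's quasi-likelihood test), but was called without WT replicate 2 (-0.16, adjusted p = 0.0407) or without WT replicate 3 (-0.16, adjusted p = 0.0417). Its difference rested mostly on WT replicate 1 (22.7 CPM, against 19.3 and 19.5 CPM in the other WT samples), without which it was -0.0434 (adjusted p = 0.597).

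Effector genes of the stress response split into higher and lower ones. Nupr1, a small stress-induced regulator of transcription (chr7:126623249-126630861, reverse strand), had 4.68, 4.6 and 5.66 CPM in WT and 1.5, 2.01 and 1.80 CPM in Tnfaip2-/- EBs. The groups were far apart, with a fitted level 2.82-fold lower in Tnfaip2-/- EBs (log2 fold change -1.49, SE 0.15, adjusted p = 4e-12 in edgeR's quasi-likelihood test), on 106, 103 and 133 counts against 34, 44 and 40. Chac1, an enzyme that breaks down glutathione (chr2:119351229-119354381, forward strand), had 6.27, 7.10 and 6.77 CPM in WT and 3.30, 3.29 and 3.52 CPM in Tnfaip2-/- EBs. Its groups were also separate, with a mean 1.99-fold lower (log2 fold change -0.99, SE 0.115, adjusted p = 2.36e-10 in edgeR's quasi-likelihood test).

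Trib3, a pseudokinase that ATF4 and CHOP induce (chr2:152337422-152344032, reverse strand), moved the other way, with 12.9, 13.9 and 12.5 CPM in WT and 21.3, 19.3 and 18.6 CPM in Tnfaip2-/- EBs. All Tnfaip2-/- samples were above all WT samples (log2 fold change 0.59, SE 0.0685, adjusted p = 2.23e-10 in edgeR's quasi-likelihood test). Sesn3, a sestrin that restrains the growth kinase complex mTORC1 (chr9:14275067-14333101, forward strand), had 34.7, 39.4 and 35.7 CPM in WT and 58.5, 56.7 and 54.8 CPM in Tnfaip2-/- EBs. It likewise showed no overlap (log2 fold change 0.63, SE 0.0454, adjusted p = 9.17e-17 in edgeR's quasi-likelihood test). Both lie close to 1.5-fold. Trib3 fell short of it without Tnfaip2-/- replicate 1 (0.53), WT replicate 1 (0.57) or WT replicate 3 (0.55) and with no expression filter (0.57) or DESeq2 (0.58), and Sesn3 was just short of it without WT replicate 1 (0.58). Vldlr, a lipoprotein receptor that ATF4 is known to induce, was 1.26-fold higher (10.8 ± 0.226 and 13.6 ± 1.5 CPM, log2 fold change 0.33, adjusted p = 0.000248 in edgeR's quasi-likelihood test). Nupr1 and Chac1 on the one side and Trib3 and Atf3 on the other all carry the core shown in capitals, and so the targets with this core did not move together.

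The serine pathway was lower from the first step to the last. Phgdh, which diverts a glycolytic intermediate into serine synthesis (chr3:98313170-98339990, reverse strand), had 124, 119 and 127 CPM in WT and 70.5, 73.0 and 72.8 CPM in Tnfaip2-/- EBs. Its 3 Tnfaip2-/- samples were all far below the lowest WT sample (log2 fold change -0.77, SE 0.0338, adjusted p = 9.38e-25 in edgeR's quasi-likelihood test). The level of Phgdh is uncertain because 47.3% of the 51-base windows of its exons also occur in other genes, most often the pseudogene Gm7901, which fell as well (31.5 and 20.1 CPM, log2 fold change -0.65). Psat1, the enzyme of the next step, fell less, from a mean of 214 ± 2.52 CPM to 154 ± 1.96 CPM (-0.47 on the log2 scale, adjusted p = 3.91e-20 in edgeR's quasi-likelihood test). Psph, which releases serine (chr5:129765558-129787449, reverse strand), had 25.1, 24.8 and 26.2 CPM in WT and 16.2, 15.2 and 17.4 CPM in Tnfaip2-/- EBs. The groups were separate (log2 fold change -0.64, SE 0.0607, adjusted p = 6.39e-13 in edgeR's quasi-likelihood test), and 10.4% of the exon bases of Psph overlap Cct6a on the opposite strand, which had a log2 fold change of -0.13.

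The mitochondrial enzymes that use serine for folate metabolism were lower to a similar extent. Shmt2, which converts serine to glycine (chr10:127517123-127522444, reverse strand), had 191, 199.5 and 192 CPM in WT and 114, 112 and 109 CPM in Tnfaip2-/- EBs. The groups did not overlap, and the means were 194 ± 4.59 and 112 ± 2.69 CPM (SD, n = 3; log2 fold change -0.80, SE 0.0298, adjusted p = 2.09e-27 in edgeR's quasi-likelihood test). This was close to the change of Phgdh, and which of the 2 was larger turned without WT replicate 2 or Tnfaip2-/- replicate 3. Mthfd2, which oxidizes the folate formed by Shmt2 (chr6:83305691-83325908, reverse strand), had 75.1, 71.3 and 75.8 CPM in WT and 45.9, 46.3 and 47.5 CPM in Tnfaip2-/- EBs. It too was lower in each Tnfaip2-/- sample (log2 fold change -0.67, SE 0.0393, adjusted p = 6.11e-20 in edgeR's quasi-likelihood test).

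Genes of asparagine and proline synthesis gave smaller values. Asns, asparagine synthetase and a classical ATF4 target, had 138, 140.1 and 135 CPM in WT and 141, 134.5 and 136 CPM in Tnfaip2-/- EBs, and the samples of the genotypes were intermingled. No difference was detected (log2 fold change -0.01, SE 0.03, adjusted p = 0.819 in edgeR's quasi-likelihood test), and its sign turned without Tnfaip2-/- replicate 2 (0.0053) and when samples were scaled by total counts alone (0.02). Of the proline genes, Aldh18a1 was lower (58.8 ± 0.942 and 45.1 ± 2.19 CPM, log2 fold change -0.38, adjusted p = 4.03e-11 in edgeR's quasi-likelihood test). Pycr1, which completes proline, was not called (17.4 ± 1.11 and 15.8 ± 0.335 CPM, log2 fold change -0.14, adjusted p = 0.0554 in edgeR's quasi-likelihood test), but was called without WT replicate 2 (-0.20, adjusted p = 0.014) and with no expression filter (-0.16, adjusted p = 0.0433).

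**Figure D3:**
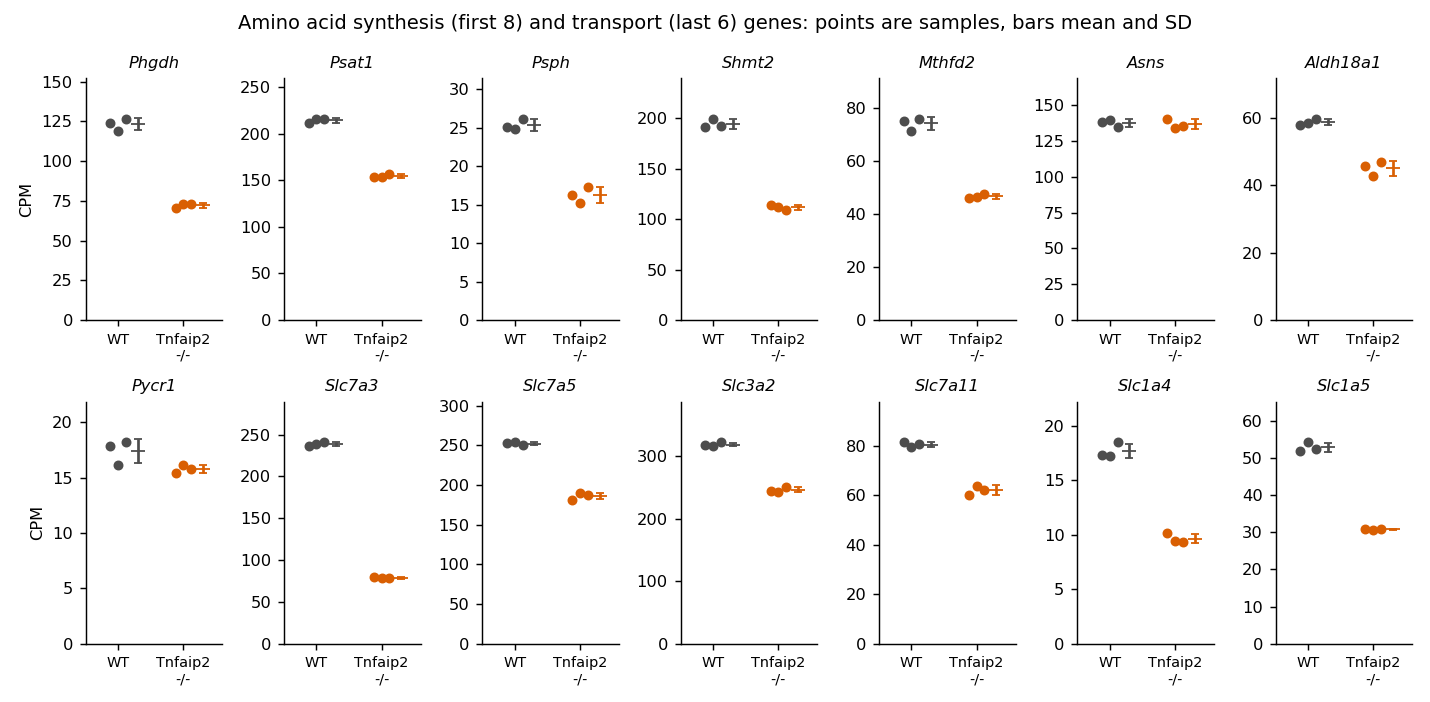
CPM (y axes from 0) of the 8 amino acid synthesis genes and the 6 transporters in each of 3 WT (grey) and 3 Tnfaip2-/- (orange) EB samples, with mean and SD beside the points. Slc7a3 shows the widest gap between the groups, 238 and 78.6 CPM on average, and the points of Asns overlap.

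All 6 amino acid transporters were lower in every Tnfaip2-/- sample than in any WT sample. Groups without overlap, in either direction, were found for 69.4% of all genes tested. Slc7a3, a carrier of arginine and lysine (chrX:101079210-101086020, reverse strand), had 236, 239 and 241 CPM in WT and 79.5, 78.2 and 78.2 CPM in Tnfaip2-/- EBs. Its mean was 3.03-fold lower (238 ± 2.3 and 78.6 ± 0.78 CPM, log2 fold change -1.60, SE 0.0296, adjusted p = 1.91e-39 in edgeR's quasi-likelihood test). Slc1a4, a carrier of serine, alanine and cysteine (chr11:20302180-20332713, reverse strand), had 17.3, 17.2 and 18.5 CPM in WT and 10.1, 9.45 and 9.38 CPM in Tnfaip2-/- EBs. Its groups were clearly separate (log2 fold change -0.87, SE 0.0723, adjusted p = 9.62e-15 in edgeR's quasi-likelihood test), and its promoter stretch is among those shown. Slc1a5, a glutamine carrier (chr7:16781340-16798274, forward strand), had 51.9, 54.1 and 52.4 CPM in WT and 30.8, 30.5 and 30.9 CPM in Tnfaip2-/- EBs. This was again a difference without overlap (log2 fold change -0.78, SE 0.0443, adjusted p = 1.91e-20 in edgeR's quasi-likelihood test).

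The heterodimeric transporters were lower by less. Slc3a2 encodes the heavy chain that pairs with Slc7a5 to import large neutral amino acids and with Slc7a11 to import cystine. Slc3a2 fell from 319 ± 3.07 to 247 ± 4.04 CPM, Slc7a5 from 252 ± 2.06 to 186 ± 4.01 CPM and Slc7a11 from 80.4 ± 1.05 to 62.1 ± 1.88 CPM (SD, n = 3). The log2 fold changes of the heavy chain and its partners were close to each other, at -0.37, -0.44 and -0.37 (adjusted p = 1.93e-17, 3.09e-19 and 1.67e-12 in edgeR's quasi-likelihood test).

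The tRNA synthetases, which load amino acids onto tRNAs, had a median log2 fold change nearer to zero than the genes of amino acid supply, a difference that was not tested. Only Mars1, the methionine enzyme (chr10:127296221-127311786, reverse strand), was called at 1.5-fold. It had 123, 123 and 123 CPM in WT and 76.6, 76.9 and 78.0 CPM in Tnfaip2-/- EBs, so that replicates were nearly identical and the genotypes far apart (log2 fold change -0.67, SE 0.0321, adjusted p = 3.17e-23 in edgeR's quasi-likelihood test). Mars1 shares 68 exon bases with Ddit3, its neighbor on the opposite strand, which moved the other way. Wars, the tryptophan enzyme, was next, from 98.0 ± 1.65 to 65.9 ± 1.15 CPM (-0.57 on the log2 scale, adjusted p = 1.75e-19 in edgeR's quasi-likelihood test), and it reached 1.5-fold without Tnfaip2-/- replicate 3 (-0.59) or WT replicate 1 (-0.60) and with no expression filter (-0.59). Iars (isoleucine), Gars (glycine), Yars (tyrosine) and Sars (serine) were lower, with log2 fold changes of -0.35, -0.26, -0.24 and -0.12.

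Differences of the remaining synthetases were small or opposite. Cars, the cysteine enzyme, was higher (60.8 ± 3.49 and 76.5 ± 0.637 CPM, log2 fold change 0.33, adjusted p = 2.27e-10 in edgeR's quasi-likelihood test), and so was Eprs, which charges glutamate and proline (317 ± 7.21 and 348 ± 2.78 CPM, log2 fold change 0.13, adjusted p = 1.07e-05 in edgeR's quasi-likelihood test). Lars (leucine, log2 fold change -0.08) and Aars (alanine, -0.07) were called lower at adjusted p = 0.0123 and 0.0145 in edgeR's quasi-likelihood test. Neither call was stable: Lars lost it without WT replicate 2 (-0.06, adjusted p = 0.0809) and both lost it with scaling by total counts alone (adjusted p = 0.108 and 0.151 in the same test). The exons of Aars also overlap Exosc6 on the same strand over 14.3% of their bases. Nars (asparagine) and Tars (threonine) had groups that overlapped, with changes of -0.01 and -0.04 on the log2 scale that did not pass edgeR's quasi-likelihood test (adjusted p = 0.713 for Nars and 0.274 for Tars). The sign of Nars turned with total counts alone (0.02), that of Tars without Tnfaip2-/- replicate 2 (0.0007), and Tars was called lower without Tnfaip2-/- replicate 3 (-0.08, adjusted p = 0.045).

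To compare genes with each other, CPM was divided by the exon length in kb. On this scale Gars was the most abundant of the 40 genes, with 126 ± 0.897 CPM per kb in WT and 105 ± 1.08 CPM per kb in Tnfaip2-/- EBs (SD, n = 3), followed by Slc3a2 with 90.4 ± 0.87 and 70.0 ± 1.14 CPM per kb. In WT EBs, the next in order were Slc7a5 (68.0 ± 0.555 CPM per kb), Slc7a3 (63.0 ± 0.607 CPM per kb) and Shmt2 (62.5 ± 1.48 CPM per kb), of which the last 2 lie within their spread of each other. In Tnfaip2-/- EBs the level of Slc7a3 was 20.8 ± 0.206 CPM per kb, below that of Asns (50.1 ± 1.2 CPM per kb), which it exceeded in WT EBs (50.4 ± 0.999 CPM per kb). Atf4 stood at 35.8 ± 0.318 CPM per kb in WT and 23.7 ± 1.15 CPM per kb in Tnfaip2-/- EBs. The lowest levels belonged to stress response genes, with Atf3 at 0.819 ± 0.0512, Cebpb at 1.04 ± 0.11, Vldlr at 1.07 ± 0.0225 and Nupr1 at 1.98 ± 0.235 CPM per kb in WT EBs. In Tnfaip2-/- EBs, Nupr1 was the lowest, at 0.704 ± 0.103 CPM per kb, and Cebpb, at 2.32 ± 0.152 CPM per kb, was above it. Nupr1 and Cebpb, which changed most within the stress response, were thus among its genes of low level. Atf3 and Vldlr, low as well, changed less (0.58 and 0.33 on the log2 scale).

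**Figure D4:**
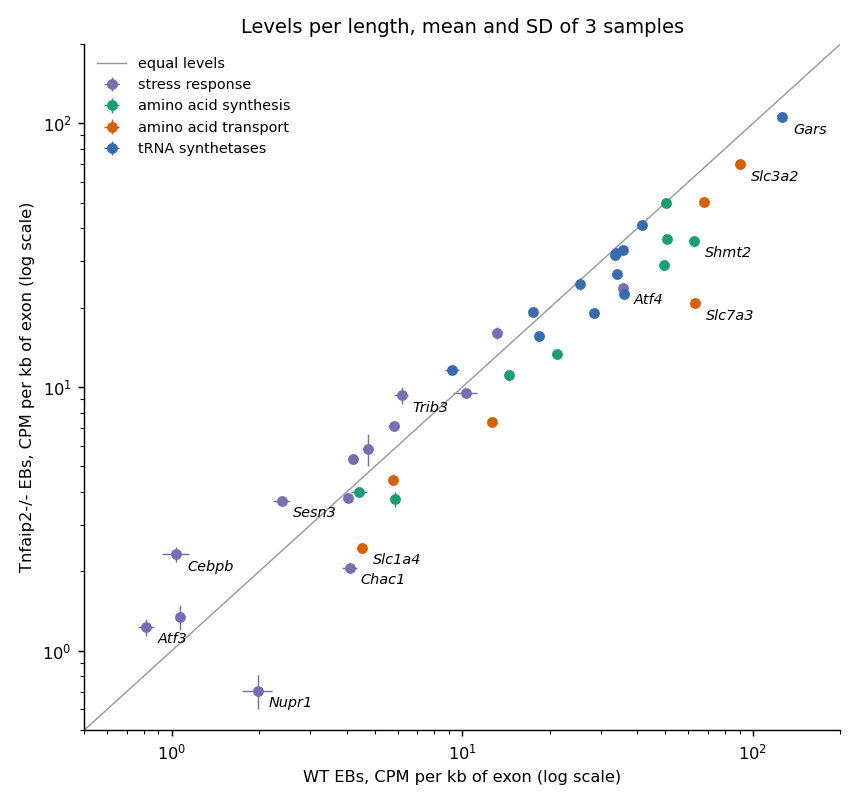
Mean level of each of the 40 genes in WT EBs (x axis) and Tnfaip2-/- EBs (y axis) as CPM per kb of exon on log scales, with SD over 3 samples and color by role. Transport and synthesis genes lie on or below the line of equal levels, and several stress response genes of low level lie above it.

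Further genes of the pathway were taken from lists of the same kind. Of 20 further ATF4 targets, 19 were tested, and 8 (42.1%) were higher and 10 (52.6%) lower, against 34% and 33.7% of all genes tested, with a median log2 fold change of -0.42. Cth, which makes cysteine from cystathionine, fell most, from 28.8 ± 1.99 to 4.42 ± 0.794 CPM (-2.70 on the log2 scale, adjusted p = 3.63e-30 in edgeR's quasi-likelihood test), and Slc43a1, a carrier of neutral amino acids, had a log2 fold change of -1.34. Ero1l, an oxidase of the ER, rose to 336 ± 6.48 CPM from 144 ± 2.67 CPM in WT (log2 fold change 1.22, adjusted p = 3.39e-36 in edgeR's quasi-likelihood test), and the secreted glycoprotein gene Stc2 had a log2 fold change of 0.70.

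Among 11 genes of eIF2, its kinases and its exchange factor eIF2B, 3 were higher (27.3%, against 34% of all genes tested) and 6 lower (54.5%, against 33.7%). Eif2s2, the beta subunit of eIF2, rose to 385.5 ± 3.21 CPM from 256 ± 6.35 CPM in WT (log2 fold change 0.59, adjusted p = 7.07e-25 in edgeR's quasi-likelihood test), whereas the eIF2B subunit genes Eif2b1 and Eif2b2 were lower (-0.46 and -0.40). Of the other 2 kinase genes, Eif2ak1 was lower (47.4 and 36.1 CPM, -0.39 on the log2 scale, adjusted p = 9.37e-11 in edgeR's quasi-likelihood test). Eif2ak2 was called higher (0.26, adjusted p = 0.0106 in edgeR's quasi-likelihood test), and this call was lost without WT replicate 2 (0.14, adjusted p = 0.176) and with DESeq2, where the change kept its size (0.25, adjusted p = 0.104). Of 11 other cytosolic synthetases and scaffold proteins, 4 (36.4%) were higher, led by Dars (0.40) and Rars (0.32), and 5 (45.5%) were lower, led by Vars (-0.42) and Hars (-0.19), with a median log2 fold change of -0.05. Of 17 mitochondrial synthetases, 4 (23.5%) were higher and 7 (41.2%) lower, with a median of -0.02. The share called was 64.7%, near the 67.7% of all genes tested. Among the lower ones were Aars2 (-0.63) and Vars2 (-0.42). The number called among them fell from 11 to 7 without Tnfaip2-/- replicate 1 and to 6 with DESeq2. Nars2 (0.20) and Iars2 (0.18) were among the higher ones, and Nars2 was no longer called without WT replicate 2 (0.12, adjusted p = 0.111 in edgeR's quasi-likelihood test) and with DESeq2 (0.19, adjusted p = 0.0778).

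**Figure D5:**
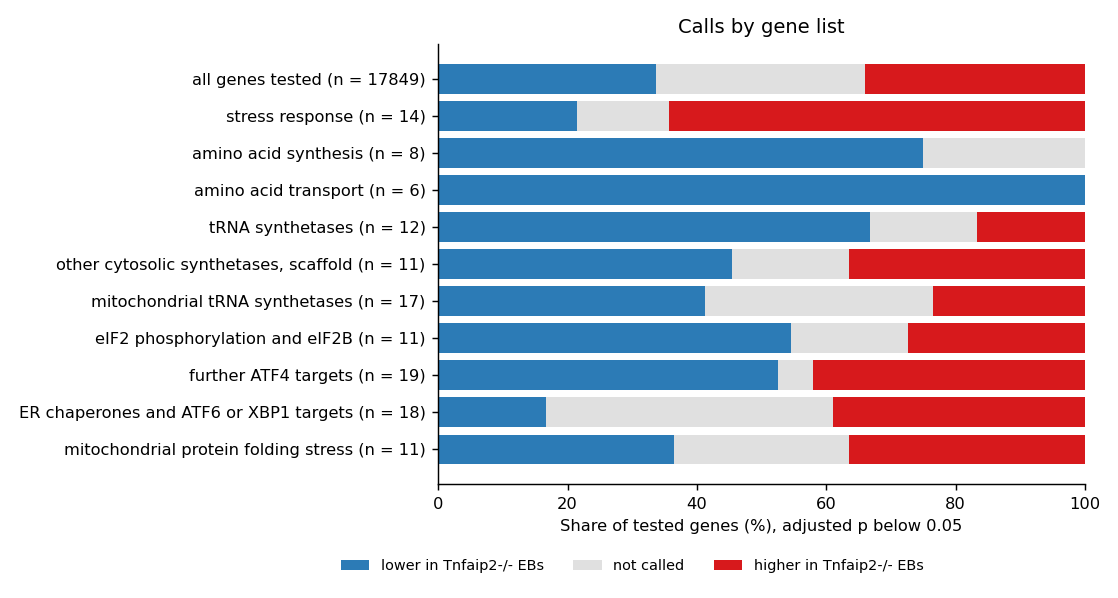
Share of tested genes (x axis, %) that were lower (blue), not called (grey) or higher (red) in Tnfaip2-/- EBs, for all 17849 genes tested and for each gene list. The bar of amino acid transport is all blue and that of stress response mostly red, with 64.3% of its genes higher.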

How the data were processed

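RNA of 6 EB samples, 3 per genotype and grouped by their titles, was sequenced after 3 days of differentiation. The authors prepared unstranded libraries and mapped reads to GRCm38 with TopHat2 2.1.0. Only reads with a single place in the genome were counted per Ensembl gene, with featureCounts 1.5.0 (versions from the submitters' processing notes). Raw counts were deposited. Whether counting used the strand is not given in the sources used here. Totals ranged from 21765931 to 23804489 counts.

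The counts were fitted with edgeR 4.0.16 in R 4.3.3, using TMM scaling, the default filter (minimum count 10, minimum total 15) and the robust quasi-likelihood test, in its newer form, with Benjamini-Hochberg adjustment over 17849 genes. The fit was tested on simulated data with 50 genes changed at each of several folds, among 17228 genes tested. It recovered 35 of 49 tested genes at 1.25-fold, 38 of 48 at 1.5-fold, 44 of 48 at 2-fold and 49 of 49 at 4-fold. Far fewer genes changed there than were called here, so the simulation does not give the error of these calls. SE is the absolute log2 fold change over the root of F, and is approximate. CPM uses effective library sizes. DESeq2 1.42.0, other scalings and filters, the legacy fit, a test against a fold change of 1.5, a replicate block and leaving out each sample were alternatives. Symbols, exon lengths, overlaps and shared 51-base windows come from GENCODE for GRCm38, where Mars1 is named Mars. Promoter windows come from RefSeq.

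Genes given in every sample are those called at 1.5-fold with a mean of at least 1 CPM, and Atf4, Eif2ak3 and Eif2ak4. Ddit3, Atf3 and Asns were added after their values were seen. From each further list, up to 2 genes in each direction are named. Xbp1 and the kinase gene Eif2ak1 were added after their values were seen. Promoter stretches are shown for at most 6 genes. The genes and lists were chosen with earlier results of these data known.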

Additional observations from a re-analysis of the deposited data

How the results depend on the processing

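The medians of the roles kept their signs under all alternatives run. The median of transport was -0.63 with no filter, -0.58 with total counts alone and between -0.63 and -0.60 when 1 sample was left out. The median of stress response was between 0.26 and 0.31 when 1 sample was left out, and that of the synthetases was -0.072 with total counts alone. Tested against a fold change of 1.5, 2798 of all genes and 10 of the 40 genes were called, where 12084 and 34 had been. Of the 40 genes, 33 were called with DESeq2, 32 with total counts alone, 35 with no filter and between 33 and 35 when 1 sample was left out, and between 13 and 15 changed at least 1.5-fold. With the replicate block 33 were called and 11841 genes in all. Aars lost its call with the block (-0.07, adjusted p = 0.0573 in edgeR's quasi-likelihood test) and with total counts alone. Deviations of same-numbered samples from their group means had correlations of -0.165, -0.159 and -0.135 over 10119 genes. Those of samples with differing numbers lay between 0.023 and 0.148. With 3 samples per group these values cannot settle whether the numbers pair the samples.

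Signs turned for Asns (0.0195 with total counts alone, between -0.0346 and 0.0053 when 1 sample was left out), Nars (0.0156 with total counts alone) and Tars (between -0.0798 and 0.0007 when 1 sample was left out), whose changes did not pass the test. The cause was not tested. Total counts alone moved the median of all genes from 0.003 to 0.03. Depth limits Cebpb, Nupr1 and Atf3, which have the fewest counts.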

Other observations

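Genes of protein folding in the ER and in mitochondria were looked at as well. Whether they depend on ATF4 was not tested, so they are no contrast independent of it. Of 18 ER chaperones and targets of the ER stress factors ATF6 and XBP1, 7 (38.9%) were higher and 3 (16.7%) lower, against 34% and 33.7% of all genes tested, and 8 were not called. Their median log2 fold change was 0.04. Hspa5, which encodes the main ER chaperone BiP, rose to 604 ± 4.17 CPM from 368 ± 6.15 CPM in WT (SD, n = 3; log2 fold change 0.71, adjusted p = 3.87e-29 in edgeR's quasi-likelihood test), and Creld2 had a log2 fold change of 0.44. Herpud1, a factor of ER-associated degradation, was lower (-0.47), as was the chaperone gene Calr (-0.12), while Xbp1 itself was not called (48.5 and 47.8 CPM, -0.02; chosen after its value was seen).

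Of 11 genes of mitochondrial protein folding and its stress signal, 4 (36.4%) were higher and 4 (36.4%) lower, near the shares over all genes, with a median of -0.03. The protease gene Clpp fell from 73.9 ± 1.26 to 43.5 ± 3.15 CPM (-0.76 on the log2 scale, adjusted p = 6.2e-21 in edgeR's quasi-likelihood test) and Htra2 had a log2 fold change of -0.57. The chaperone gene Hspa9 (0.34) and the protease gene Yme1l1 (0.23) were higher.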
